A study of Mus musculus with 8 samples.

Results

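The semaphorins and their plexin and neuropilin receptors were followed in imiquimod-treated epidermis of Hnrnpu knockout and control mice. Hnrnpu is the gene of a nuclear RNA-binding protein. The members are 31 genes taken by symbol, 20 semaphorins, 9 plexins and 2 neuropilins, and 30 of them were rows of the count table of 23171 genes. Sema5b had no row and is not analysed here. The series holds 4 libraries from mice with an epidermis-specific Hnrnpu knockout (labelled Hnrnp-u knockout, here cKO) and 4 from control mice labelled WT, all described as epidermal keratinocytes, all given imiquimod and all in 1 batch. Imiquimod is a Toll-like receptor 7 agonist that causes psoriasis-like inflammation of mouse skin. The promoter of the Cre, the alleles that the controls carry, the part of Hnrnpu deleted, and the strain, age and dose are not stated in the labels. No library without imiquimod was used, so nothing below shows how the treatment itself moved these genes.

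Semaphorins are cell guidance proteins that share an extracellular sema domain. Class 3 members are secreted, classes 4, 5 and 6 span the membrane, and Sema7a is held to it by a lipid anchor. Plexins are their receptors, with a cytoplasmic domain that acts on small GTPases and thereby on adhesion and the cytoskeleton, and most secreted semaphorins bind a neuropilin that pairs with a plexin. In skin the family is known for steering sensory nerve fibres, for vessel growth and for talk between keratinocytes and immune cells, among them epidermal T cells whose Sema4d (CD100) binds plexin-B2 on keratinocytes.

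Libraries held 37158621 to 38865722 counts. Hnrnpu stood at 190, 373, 355 and 312 CPM (counts scaled to a common library total) in cKO replicates 1 to 4, against 437 ± 13.1 CPM in WT (SD, n = 4), and its difference did not pass the edgeR test over all genes (log2 fold change -0.51 ± 0.19 SE, adjusted p = 0.191). The label of the tissue held for its markers: 14 keratinocyte markers summed to 64836 to 95922 CPM in cKO and 74020 to 96923 CPM in WT. Markers of 8 other cell types or groups were also present, with 12 endothelial genes at 2.41 to 7.03 CPM in sum, 10 fibroblast genes at 48.3 to 93.7 CPM, of which Fbln1 and Thy1 (also a T cell marker) held most, and 8 T cell genes at 21.01 to 72.1 CPM over the 8 libraries.

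The upstream sequences of 3 semaphorins described below are shown, since Sema6d and Sema4d were the members that fell and Sema3e was the member whose cKO libraries all lay higher. They are RefSeq sequence of build GRCm38.p6, 5′ to 3′ on the strand of the gene, taken upstream of a RefSeq start site. Sema6d has 2 such starts. The window of its upstream start, printed for 224 of its 250 bases up to where the RefSeq gene begins, chr2:124089719-124089942 on the plus strand, lies outside any GENCODE gene, and that of its downstream start, chr2:124653331-124653580 on the plus strand, is intronic to Sema6d. The Sema3e window, chr5:14025026-14025275 on the plus strand, lies outside any GENCODE gene, and the Sema4d window, chr13:51739447-51739696 on the minus strand, is intronic to Sema4d. Sema4d has 3 such windows, and the others overlap its exons and are not printed. The bases just after the printed Sema4d start were found in no GENCODE transcript of Sema4d, while those after the other starts were. Capitals mark the GC box GGGCGG, read on either strand.
Sema6d, upstream start: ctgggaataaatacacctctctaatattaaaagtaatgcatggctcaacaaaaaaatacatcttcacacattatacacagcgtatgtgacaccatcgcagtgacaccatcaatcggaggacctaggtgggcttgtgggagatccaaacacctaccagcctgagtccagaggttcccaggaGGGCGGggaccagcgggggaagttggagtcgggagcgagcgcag
Sema6d, downstream start: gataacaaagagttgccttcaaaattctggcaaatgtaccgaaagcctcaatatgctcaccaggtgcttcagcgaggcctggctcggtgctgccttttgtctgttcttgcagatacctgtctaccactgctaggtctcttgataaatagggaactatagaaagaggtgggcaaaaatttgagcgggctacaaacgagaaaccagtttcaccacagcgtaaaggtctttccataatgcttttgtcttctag
Sema4d, intronic start: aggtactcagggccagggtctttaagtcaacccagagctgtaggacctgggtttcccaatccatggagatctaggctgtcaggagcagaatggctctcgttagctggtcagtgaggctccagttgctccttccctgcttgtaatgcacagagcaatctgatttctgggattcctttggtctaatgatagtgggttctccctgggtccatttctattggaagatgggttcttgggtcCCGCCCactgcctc
Sema3e: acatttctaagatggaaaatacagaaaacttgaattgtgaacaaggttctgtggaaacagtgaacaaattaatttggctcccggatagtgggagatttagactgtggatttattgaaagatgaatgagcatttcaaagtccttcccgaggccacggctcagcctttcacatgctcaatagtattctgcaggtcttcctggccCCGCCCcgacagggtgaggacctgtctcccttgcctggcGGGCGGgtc

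The GC box occurred 1 time before the upstream Sema6d start, 0 times before the downstream start, 1 time in the Sema4d window and 2 times in the Sema3e window. Over all 32851 windows of 250 bases in the RefSeq table, 32.7% held it. Neither the AP-1 motif TGANTCA (in 6.75% of all windows) nor the TATA box TATAAA (in 12.4%) was found on either strand of the 4 printed windows, so no motif overlaps another there. Of the Sema4d windows not printed, 1 held an AP-1 motif, and neither held a GC box. Of the 37 windows of the 26 members in that table, 27 held a GC box, 3 an AP-1 motif and 0 a TATA box. These matches describe letters only. Reads were counted per gene, so the counts do not tell which start of Sema6d or Sema4d was used.

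Levels are compared between genes per length, on the FPKM scale (fragments scaled by gene length and library total) that the authors deposited. Plxnb2, the plexin-B2 receptor, was the most abundant member in WT at 46.1 ± 3.66 FPKM (SD, n = 4), and made up 65.2% ± 3.80 of the summed plexin FPKM there. Sema4b (17.7 ± 0.994), Sema4a (16.7 ± 0.977), Sema3f (13.8 ± 1.65), Plxna1 (11.0 ± 1.26) and Sema3c (10.6 ± 1.97 FPKM) followed in the WT mean. Neighbours in this order mostly did not differ beyond their spread: for 5 of the 23 neighbouring pairs the WT libraries did not overlap, namely Plxnb2 over Sema4b, Sema4a over Sema3f, Plxnb1 over Sema4c, Sema4c over Plxna2 and Sema5a over Sema7a. Neuropilins were low. Nrp2, the co-receptor of Sema3f, stood at 0.977 ± 0.160 FPKM in WT, and Nrp1 at 0.0421 ± 0.0181. The length implied by the deposited FPKM was 20391 bases for Sema6d and 33447 for Sema6a, 1.93 and 3.81 times the exon length in GENCODE M21. Lengths were over 1.5 times apart for 5 of the 24 tested members, also Sema4c (1.67), Sema4g (0.615) and Sema5a (0.619). With GENCODE lengths 3 of the 5 pairs stayed apart, while the libraries of Sema4a and Sema3f, and of Sema5a and Sema7a, overlapped and their means changed order (13.96 against 15.7 and 1.13 against 1.18).

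**Figure D1:**
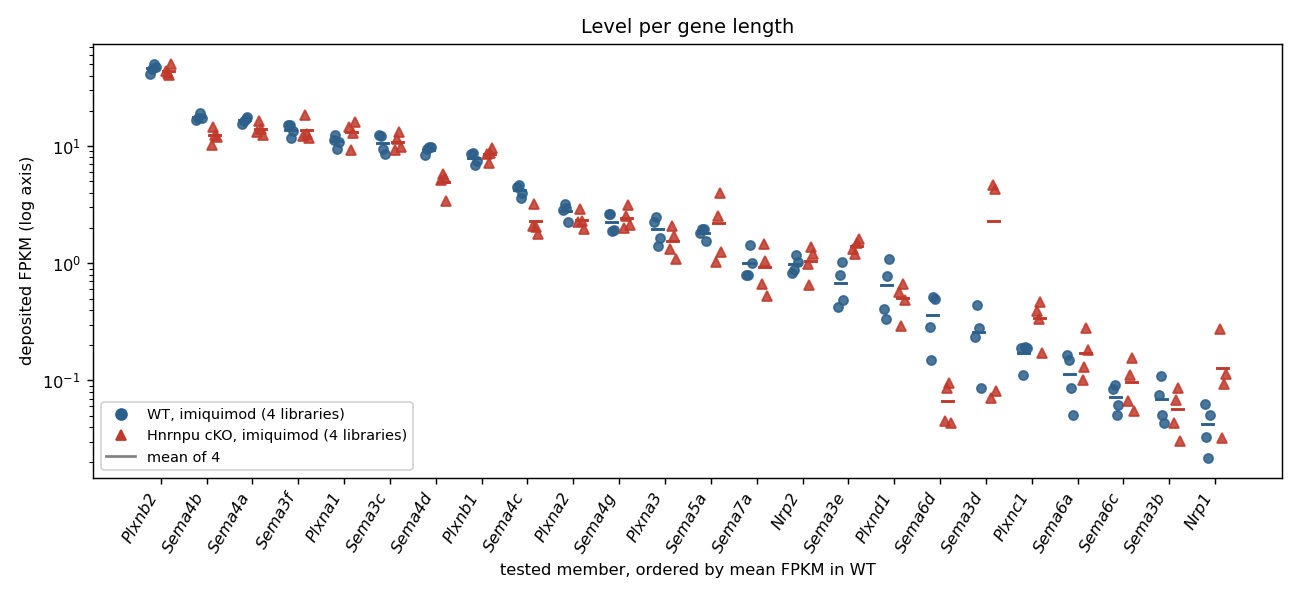
Deposited FPKM (log axis) of the 24 tested members in each of the 8 libraries, ordered by the WT mean; circles are WT, triangles cKO, and bars the mean of 4. Plxnb2 stands above all others at 46.1 FPKM in WT, and Nrp1 is last at 0.0421 FPKM.

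Of the 30 members with a row, 24 passed the filter on low counts. Sema3a, Sema3g, Sema4f, Sema6b, Plxna4 and Plxnb3 had at most 21 counts in any library and were not tested. Sema3a, the nerve-repelling semaphorin studied in itch, had 0 to 6 counts per library. Plxnb3 had 0 counts in all WT libraries and at most 3 in a cKO library, within the limit that a count of 0 allows (3 counts). Whether these 6 genes differ was not detectable at this depth.

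Between genotypes 2 of the 24 tested members fell in cKO and 0 rose in the edgeR quasi-likelihood test, with p-values adjusted over all 14004 tested genes. Over all tested genes 1.32% were called in either direction, 0.65% lower and 0.671% higher. At an unadjusted p below 0.05 there were 9 members (37.5%), 5 lower and 4 higher. Among all tested genes it was 18.6% (8.71% lower and 9.87% higher). DESeq2 called 4 members lower and 1 higher, Sema3e, with 5.47% of all its genes called. In 5 members (20.8%) the cKO and WT libraries did not overlap, 4 of them lower and 1 higher in cKO, against 11.1% of all tested genes (5.82% lower and 5.26% higher). These shares are descriptions: Sema6d was known to be lower when the family was chosen, and the 24 are those that passed the filter. The median log2 fold change was -0.03 over the 24 members and 0.01 over all tested genes.

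**Figure D2:**
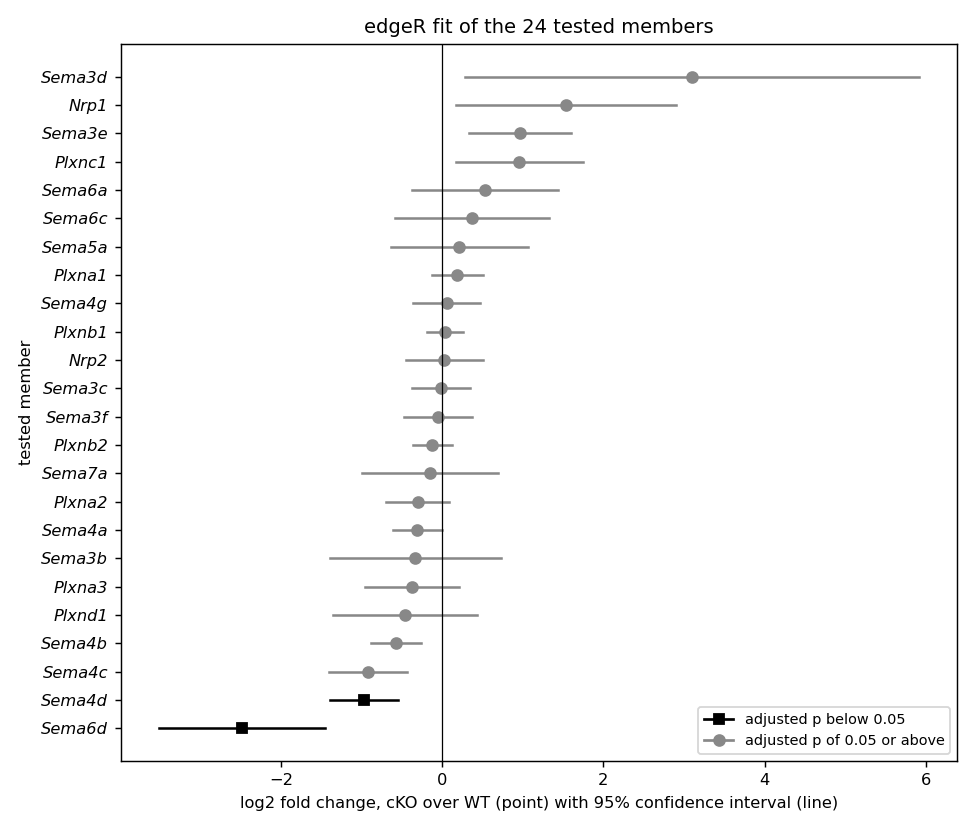
Fitted log2 difference between cKO and WT (points, positive where cKO is higher) and its 95% confidence interval (lines) for the 24 tested members; black squares mark an adjusted p below 0.05. Sema6d at -2.48 and Sema4d at -0.97 are the called members, and the wide interval of Sema3d runs from 0.29 to 5.92.

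Sema6d, a membrane-bound ligand of plexin-A1, fell most. It stood at 0.910, 1.88, 1.81 and 0.809 CPM in cKO replicates 1 to 4 and at 5.79, 3.12, 11.0 and 10.3 CPM in WT replicates 1 to 4. All cKO libraries lay below all WT libraries, and WT itself spread widely, with replicate 2 at 41.3% of the WT mean and replicate 3 at 146%. The means were 1.35 ± 0.570 and 7.57 ± 3.76 CPM (SD, n = 4 each), a 5.60-fold fall (log2 fold change -2.48 ± 0.46 SE, 95% confidence interval -3.51 to -1.46, edgeR adjusted p = 0.0364). Since Sema6d was already known to be lower, this test is no independent evidence. In RNA from a sample that holds several cell types, fewer cells of a type and less RNA per cell cannot be told apart. The other class 6 genes did not pass: Sema6a, a ligand of A-type plexins, had a log2 fold change of 0.54 ± 0.40 (adjusted p = 0.516), and Sema6c one of 0.37 ± 0.42 (adjusted p = 0.692) from 9 to 28 counts per library. Plxna1, the receptor of Sema6d, stood at 132, 89.5, 108 and 133 CPM in cKO and at 102, 115, 88.6 and 99.9 CPM in WT. Its genotypes overlapped (log2 fold change 0.19 ± 0.14, 95% confidence interval -0.13 to 0.51, adjusted p = 0.515).

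Sema4d, the CD100 ligand of B-type plexins, was the other member that fell. It stood at 33.8, 41.3, 33.3 and 20.8 CPM in cKO replicates 1 to 4, against 54.7, 64.2, 67.7 and 66.1 CPM in WT. The highest cKO library was below the lowest WT library, and cKO replicate 4 was the lowest at 33.0% of the WT mean. Means of 32.3 ± 8.48 and 63.2 ± 5.83 CPM gave a 1.96-fold fall (log2 fold change -0.97 ± 0.19 SE, edgeR adjusted p = 0.0429). A two-sided exact permutation test gave p = 0.0286, the lowest value its 70 splits can reach and that of any gene without overlap. T cells and myeloid cells also make Sema4d. The 8 T cell markers in the table summed to 21.01 to 60.6 CPM in cKO and 21.1 to 72.1 CPM in WT, with none of the 7 tested called. Among the 7 tested, 3 had a positive and 4 a negative log2 fold change. The T cell receptor component Cd3g stood at 3.90 to 12.8 CPM in cKO and 3.76 to 26.6 CPM in WT. The T cell marker Lck lay higher in every cKO library, at 1.19 to 2.61 CPM, than in WT, at 0.498 to 0.865 CPM (edgeR adjusted p = 0.0545). The 12 macrophage and dendritic cell markers summed to 132 to 430 CPM in cKO and 198 to 259 CPM in WT, also with none called. Cd74 and H2-Ab1 held most of that sum, and of the 12 markers 4 had a positive and 8 a negative log2 fold change. The part of these cells in the Sema4d difference was not tested.

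Both calls were lost in fits that left out 1 library, most of which also called fewer genes of any kind. Sema6d was not called without cKO replicate 1 (adjusted p = 0.0873), 3 (0.0664) or 4 (0.0556), or without WT replicate 1 (0.0685), 3 (0.0999) or 4 (0.108). Sema4d was not called without cKO replicate 1 (0.0839) or 3 (0.0805) or without any single WT library (0.0691, 0.0917, 0.105 and 0.121 for WT replicates 1 to 4). Without cKO replicate 1 or 3 or any single WT library, 0.056% to 0.465% of all tested genes were called, against 1.32% in the main fit. Without cKO replicate 4 it was 1.5%. The log2 fold change stayed between -2.74 and -2.25 for Sema6d and between -1.09 and -0.80 for Sema4d. limma-voom called Sema4d and not Sema6d (adjusted p = 0.0675).

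Of the other tested class 4 semaphorins, Sema4a, Sema4b and Sema4c had the same sign without passing over all genes, and Sema4g did not. Sema4c, a ligand of plexin-B2, stood at 15.9, 26.3, 14.6 and 12.8 CPM in cKO and at 34.5, 37.02, 28.9 and 31.2 CPM in WT, with no overlap (log2 fold change -0.92 ± 0.22 SE, edgeR adjusted p = 0.0654). Sema4b stood at 43.2, 66.6, 49.9 and 47.4 CPM in cKO and at 70.9, 76.4, 85.04 and 76.1 CPM in WT, again with no overlap (-0.57 ± 0.14, adjusted p = 0.0705). For both genes cKO replicate 2 was the highest cKO library. Without it the edgeR adjusted p was 0.00809 for Sema4c and 0.0169 for Sema4b, and DESeq2 called both with all libraries in (0.0033 and 0.00859). These fits called more genes of any kind, 3.55% and 5.47%, against 1.32% in the main fit. Sema4c was also called with library-size scaling (0.0492) and without the low-count filter (0.0464). Sema4a, known as a co-stimulatory ligand on dendritic cells, was at 59.1, 79.5, 59.0 and 52.1 CPM in cKO and 68.9, 77.0, 81.3 and 81.5 CPM in WT. Its cKO replicate 2 lay inside the WT range, and the difference did not pass (-0.31 ± 0.13, adjusted p = 0.264). Sema4g overlapped between genotypes, at 10.4 to 15.6 CPM in cKO and 10.4 to 14.4 CPM in WT (0.06 ± 0.19, adjusted p = 0.911).

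**Figure D3:**
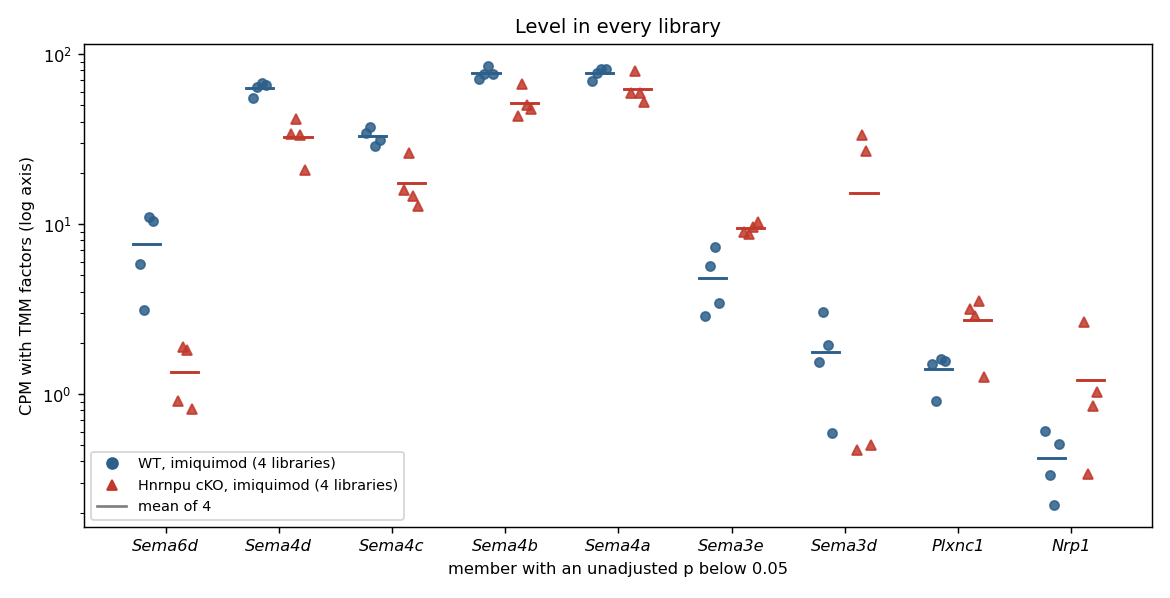
CPM (log axis) in each library of the 9 members with an unadjusted p below 0.05; circles are WT, triangles cKO, and bars the mean of 4. Sema6d, Sema4d, Sema4c and Sema4b show no overlap with cKO lower, Sema3e none with cKO higher, and Sema3d splits the cKO libraries.

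Summed over the 6 class 4 genes, FPKM ran from 31.8 to 42.6 in cKO and from 47.6 to 51.7 in WT, with means of 36.01 ± 4.97 and 50.2 ± 1.77 (SD, n = 4 each). The 7 class 3 genes summed to 28.4 ± 6.54 in cKO and 25.5 ± 3.48 in WT, and the ranges overlapped. The share of Sema4d in the summed semaphorin FPKM was 7.30% ± 1.24 in cKO and 11.8% ± 1.03 in WT. The 9 plexins summed to 70.7 ± 6.81 FPKM in cKO and 70.6 ± 2.47 in WT. No cKO library reached the WT range of the class 4 sum, while the receptor sum had nearly the same mean and a wider spread in cKO. The class 4 sum includes Sema4b, Sema4c and Sema4d, already given as lower without overlap, so its gap is no separate result. These sums are given as levels, with no test.

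**Figure D4:**
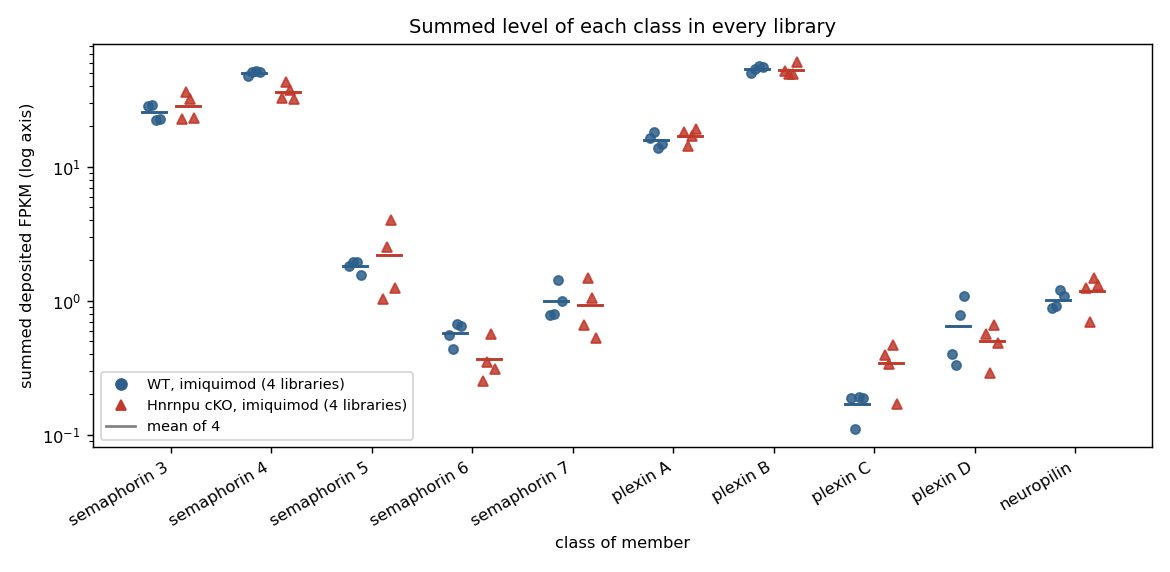
Summed deposited FPKM (log axis) of each semaphorin class, plexin class and the neuropilins in each library; circles are WT, triangles cKO, and bars the mean of 4. The semaphorin 4 sum is 31.8 to 42.6 in cKO and 47.6 to 51.7 in WT.

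Among secreted semaphorins Sema3e, which binds Plxnd1 without a neuropilin, had higher values in cKO. It stood at 8.998, 8.74, 9.58 and 10.3 CPM in cKO and at 2.86, 5.64, 7.30 and 3.43 CPM in WT. The cKO libraries were close together and above all WT libraries, which spread more widely. The difference did not pass over all genes (log2 fold change 0.97 ± 0.28 SE, edgeR adjusted p = 0.115, exact permutation p = 0.0286), and DESeq2 called it (adjusted p = 0.0168). The permutation value is the lowest possible and follows from the lack of overlap, which 11.1% of all tested genes share. Its receptor Plxnd1 stood at 3.80, 2.10, 4.17 and 3.02 CPM in cKO and 2.70, 2.29, 5.50 and 7.52 CPM in WT, with overlap. Its log2 fold change was -0.46 ± 0.40 (adjusted p = 0.577) and moved to -0.10 without WT replicate 4.

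Sema3d, a secreted ligand that acts through neuropilins, had the largest fitted fold change of the members and libraries on both sides of WT. It stood at 0.468, 33.4, 26.7 and 0.4996 CPM in cKO replicates 1 to 4 and at 1.55, 3.01, 1.94 and 0.589 CPM in WT. In counts, cKO replicates 2 and 3 held 1192 and 1108 reads, and cKO replicates 1 and 4 held 18 and 21, fewer than any WT library. The fitted log2 fold change of 3.10 ± 1.25 SE therefore averages 2 libraries above and 2 below the whole WT range (edgeR adjusted p = 0.225, exact permutation p = 0.429). Sema5a, a membrane-bound semaphorin with thrombospondin repeats, split the same way, with 31.3 and 43.2 CPM in cKO replicates 2 and 3 and 11.9 and 13.4 CPM in cKO replicates 1 and 4, around a WT range of 18.4 to 23.5 CPM (0.21 ± 0.38, adjusted p = 0.815, and -0.19 without cKO replicate 3). Some other values set the same libraries apart, and some did not. Among keratinocyte markers, Flg stood at 3373 and 2771 CPM in cKO replicates 2 and 3 and 1949 and 908 in 1 and 4. Lor did likewise, at 3484 and 2499 CPM against 1940 and 834 CPM. Krt5 went the other way, at 7491 and 6643 CPM against 10145 and 9763 CPM. So did Dsg3, at 127 and 107 CPM against 163 and 247 CPM. Trp63 did not split, at 289, 321, 389 and 323 CPM in cKO replicates 1 to 4. S100a8, which neutrophils and inflamed keratinocytes both make, stood at 763 and 941 CPM in cKO replicates 2 and 3, at 2950 and 3812 CPM in cKO replicates 1 and 4, and at 1736 to 7429 CPM in WT. The neutrophil receptor Cxcr2 went the other way within cKO, at 29.8 and 13.003 CPM in replicates 2 and 3 and 5.67 and 8.59 CPM in replicates 1 and 4. The 5 other neutrophil markers were at most 0.650 CPM in any cKO library. The sum of macrophage and dendritic cell markers was 430 and 342 CPM in cKO replicates 2 and 3 and 298 and 132 CPM in cKO replicates 1 and 4. Cd74 and H2-Ab1 held most of this sum, and the markers of the list did not move together. Cd207 was at 25.9 and 15.9 CPM in replicates 2 and 3 and 5.88 and 3.21 CPM in replicates 1 and 4. Lyz2 went the other way, at 3.56 and 5.16 CPM against 15.8 and 7.40 CPM. Fibroblast markers did not move together either. The collagen Col1a1 stood out in replicate 2 only, at 0.260, 1.20, 0.289 and 0.262 CPM in cKO replicates 1 to 4. Col1a2 split, at 0.700 and 0.965 CPM in replicates 2 and 3 and 0.182 and 0.404 CPM in replicates 1 and 4. So did Thy1, at 31.5 and 15.3 CPM against 12.2 and 9.78 CPM. Fbln1 went the other way, at 34.2 and 29.9 CPM against 53.3 and 39.7 CPM. The sum of the 10 fibroblast markers, mostly Fbln1 and Thy1, did not split, at 66.9, 70.4, 48.3 and 51.7 CPM. The part of these cells in the Sema3d and Sema5a values was not tested.

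The other tested secreted semaphorins overlapped between genotypes. Sema3f, the ligand of Nrp2, stood at 71.0, 116, 70.2 and 63.4 CPM in cKO and 87.7, 92.1, 71.8 and 80.6 CPM in WT, with cKO replicate 2 above every other library (log2 fold change -0.05 ± 0.19 SE, 95% confidence interval -0.48 to 0.38, edgeR adjusted p = 0.921). Sema3c, a ligand of both neuropilins, ranged from 44.8 to 61.3 CPM in cKO and 43.3 to 62.0 CPM in WT (-0.02 ± 0.16, -0.38 to 0.34, adjusted p = 0.971). Sema3b had 5 to 17 counts per library, too few to place it (-0.33 ± 0.47, -1.39 to 0.73, adjusted p = 0.758). Sema7a, not secreted but the lipid-anchored ligand of Plxnc1 and of β1 integrins, stood at 1.90 to 6.13 CPM in cKO and 3.04 to 5.78 CPM in WT (-0.15 ± 0.37, adjusted p = 0.875).

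No plexin or neuropilin was called among the 9 tested by edgeR. At an unadjusted p below 0.05 there were 2 of them, against 18.6% of all tested genes, and DESeq2 called none of the 9. The abundant receptors had narrow intervals. Plxnb2 stood at 300, 311, 262 and 323 CPM in cKO and 283, 321, 359 and 338 CPM in WT. The genotypes overlapped, and the 95% confidence interval of its log2 fold change (-0.12 ± 0.11 SE) was -0.36 to 0.12 (edgeR adjusted p = 0.579). Plxnb1, the other receptor of Sema4d, stood at 100.4, 89.6, 94.8 and 104.5 CPM in cKO and 99.9, 104.7, 85.1 and 89.8 CPM in WT (0.04 ± 0.10, -0.18 to 0.26, adjusted p = 0.883). Both intervals end well short of the fitted Sema4d value of -0.97. Plxna2 (-0.30 ± 0.18, adjusted p = 0.389) and Plxna3 (-0.37 ± 0.26, adjusted p = 0.483), receptors of class 3 and class 6 ligands, overlapped between genotypes. Nrp2 stood at 5.71 to 10.5 CPM in cKO and 6.61 to 9.998 CPM in WT (0.03 ± 0.21, adjusted p = 0.964).

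The 2 receptors with an unadjusted p below 0.05 were scarce. Nrp1, a co-receptor for secreted semaphorins and for VEGF, stood at 2.65, 0.336, 0.844 and 1.02 CPM in cKO and 0.603, 0.332, 0.222 and 0.509 CPM in WT, from 8 to 102 counts. Only cKO replicate 2 lay within the WT range, and replicate 1 was far above the other cKO libraries. The log2 fold change was 1.53 ± 0.61 SE (edgeR adjusted p = 0.22) and 0.83 without cKO replicate 1. Endothelial cells carry Nrp1, and their 12 markers summed to 2.41 to 5.16 CPM in cKO and 4.64 to 7.03 CPM in WT, with none of the 4 tested called. Plxnc1 stood at 3.15, 2.88, 3.52 and 1.26 CPM in cKO and 1.49, 0.912, 1.61 and 1.55 CPM in WT. All cKO libraries but replicate 4 lay above WT (0.95 ± 0.35, adjusted p = 0.19). Plexin C1 is known from melanocytes, and the 8 melanocyte markers summed to 123, 61.1, 107 and 61.8 CPM in cKO and to 35.9 to 53.7 CPM in WT, with 8 of 8 positive and Mitf called. Their part in the Plxnc1 difference was not tested.

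Other genes of the pathway were taken from 6 lists of 129 entries, of which 106 were tested. Across them 3 were higher and 1 was lower (background 0.671% and 0.65%), and the median log2 fold change was -0.03. Of the co-receptors and partners, 1 of 15 fell and 0 rose. It was Lrp1, an endocytic receptor, at 66.8, 74.8, 60.2 and 50.7 CPM in cKO and 99.6, 115, 97.2 and 109 CPM in WT (log2 fold change -0.74 ± 0.13 SE, edgeR adjusted p = 0.0337). Its genotypes did not overlap, and the call was lost without cKO replicate 1 (adjusted p = 0.0637) or 3 (0.0667) or any 1 WT library (0.0677, 0.0821, 0.0794 and 0.108 for WT replicates 1 to 4). Itgb1, the β1 integrin that Sema7a binds (-0.54 ± 0.19, adjusted p = 0.174), and Erbb2, a kinase partner of B-type plexins (-0.22 ± 0.13, adjusted p = 0.397), were the 2 most abundant that did not pass. Met, the hepatocyte growth factor receptor that pairs with plexin-B1, was at 24.7 ± 4.24 CPM in cKO and 39.02 ± 3.55 in WT without passing (-0.66 ± 0.14, adjusted p = 0.0523), and is named after its value was seen.

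Of 8 tested other ligands of neuropilins none was called by edgeR. At an unadjusted p below 0.05 there were 2 of them, against 18.6% of all tested genes. Vegfa, the vascular growth factor that binds Nrp1, stood at 30.1, 44.3, 22.3 and 44.2 CPM in cKO and 60.1, 79.3, 81.3 and 76.3 CPM in WT. The genotypes did not overlap, and the difference just missed the threshold (log2 fold change -1.08 ± 0.22 SE, edgeR adjusted p = 0.0515), while DESeq2 (4.44e-04) and limma-voom (0.0476) called it. Tgfb1 was at -0.18 ± 0.19 (adjusted p = 0.655).

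Inside the cell no gene passed in edgeR. Of 21 GTPases and their regulators 5 had an unadjusted p below 0.05, 1 higher and 4 lower. Among all tested genes 18.6% did, 9.87% higher and 8.71% lower. Rhoa (-0.02 ± 0.09 SE, edgeR adjusted p = 0.927) and Cdc42 (-0.02 ± 0.09, adjusted p = 0.923), which turn positive when scaled by library size only, were the most abundant. Rnd1, a GTPase that binds the plexin cytoplasmic domain, stood at 1.79, 1.79, 3.33 and 3.59 CPM in cKO and 6.19, 4.62, 12.6 and 11.3 CPM in WT (-1.72 ± 0.38, adjusted p = 0.0569). Rhoc, a close relative of Rhoa, stood at 2.16, 1.65, 1.98 and 3.52 CPM in cKO and 0.970, 0.802, 1.03 and 0.937 CPM in WT (1.32 ± 0.29, adjusted p = 0.0569). Neither gene's genotypes overlapped, both are named after their values were seen, and DESeq2 called both (2.98e-04 and 0.00109). Of 28 effectors and cytoskeletal targets 2 were higher and 3 lower at an unadjusted p below 0.05, against the same 9.87% and 8.71%. Nck1, an adaptor to the actin machinery, is named after its value was seen. It did not overlap between genotypes, with a mean CPM of 62.0 ± 16.5 for cKO and 33.6 ± 5.31 for WT (0.88 ± 0.19, edgeR adjusted p = 0.053). The cofilin gene Cfl1 was at -0.11 ± 0.17 (adjusted p = 0.781) and its regulator Limk2 was at -0.19 ± 0.11 (adjusted p = 0.384). Of 7 proteases that can cleave semaphorins, 1 was higher and 2 lower at that p, with Adam10 at -0.34 ± 0.09 (adjusted p = 0.0985) and Furin at -0.31 ± 0.11 (adjusted p = 0.165).

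Of 27 genes of other guidance families 3 rose and 0 fell by edgeR, against 0.671% and 0.65% of all tested genes. At an unadjusted p below 0.05, 4 were higher and 7 lower, against 9.87% and 8.71% of all tested genes. Unc5b, a netrin receptor, rose 2.74-fold, from 13.4, 10.6, 8.41 and 6.96 CPM in WT to 24.3, 19.9, 29.9 and 33.9 CPM in cKO (log2 fold change 1.45 ± 0.23 SE, edgeR adjusted p = 0.0301). Slit3, a secreted ligand of Robo receptors, rose 4.42-fold, from 0.700 ± 0.368 to 3.11 ± 0.601 CPM (2.14 ± 0.39, adjusted p = 0.0362). Efna3, an ephrin ligand of Eph receptors, rose 1.65-fold, from 105 ± 11.8 to 174 ± 27.5 CPM (0.72 ± 0.14, adjusted p = 0.0392). In each of the 3 all cKO libraries lay above all WT libraries. Unc5b was not called without cKO replicate 1 (adjusted p = 0.0615) or 3 (0.063) or WT replicate 2 (0.0755), 3 (0.0848) or 4 (0.0868). Slit3 lost its call in 7 of 8 omissions: cKO replicate 1 (0.083), 3 (0.0703) or 4 (0.0554), or WT replicate 1 (0.0595), 2 (0.0821), 3 (0.0896) or 4 (0.108). Efna3 was not called without cKO replicate 1 (0.0909) or 4 (0.0625) or any 1 WT library (0.0792, 0.0821, 0.106 and 0.121 for WT replicates 1 to 4). The most abundant genes of this list, Ephb6 (0.20 ± 0.16, adjusted p = 0.523) and Efnb2 (0.17 ± 0.10, adjusted p = 0.404), did not pass.

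**Figure D5:**
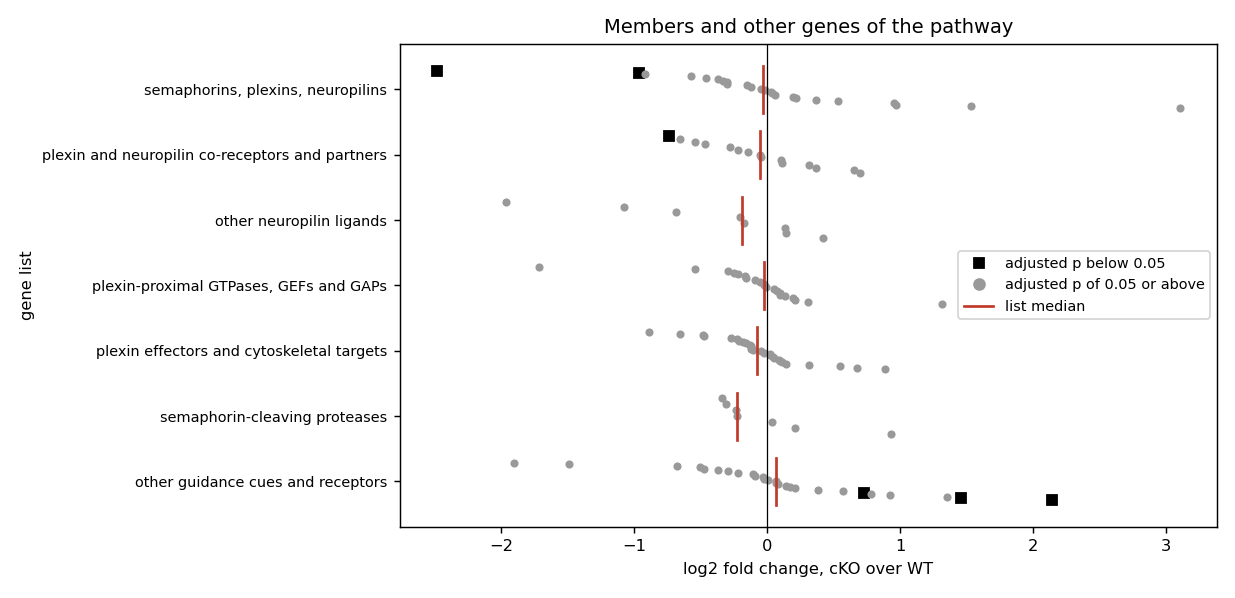
Log2 fold change of cKO over WT of each tested gene in the family and in 6 lists of other pathway genes; black squares mark an adjusted p below 0.05 and red lines the list medians. The called genes are Sema6d and Sema4d, Lrp1 and, in the other guidance families, Efna3, Unc5b and Slit3.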

How the data were processed

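RNA was sequenced from samples of 8 imiquimod-treated mice described as epidermal keratinocytes, and groups were taken from the titles. The authors deposited raw counts per gene symbol, made with HISAT2 and HTSeq per the submitters' processing notes, and FPKM values for the same libraries. No source used here gives their versions, the build, the annotation or the strand setting. In GENCODE M21, exons of Sema4c, Plxna1, Plxna4 and Plxnb1 overlap antisense transcripts, over 0.78% to 10.7% of their exon bases. If the counts ignored strand, reads of these could not be told apart. Exons of Sema4a, Plxnc1 and Nrp1 overlap genes on the same strand, over 0.818% to 1.38% of their exon bases. The FPKM implied 1 length per gene across libraries (20863 of 20863 genes with at least 2 nonzero libraries, relative tolerance 1e-04), so both tables hold the same reads.

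Counts of all 23171 genes entered edgeR 4.0.16 (R 4.3.3): filterByExpr kept 14004, TMM factors (0.934 to 1.08) scaled libraries, and the quasi-likelihood test compared cKO with WT without covariates. P-values were adjusted by Benjamini-Hochberg over all tested genes and called below 0.05. CPM use the totals of tested genes and TMM factors. Standard errors are those implied by the F statistic. Exact permutation tests over all 70 splits were two-sided, on log2(CPM + 0.5). Alternatives were DESeq2 1.42.0, limma-voom and limma on log2(FPKM + 1) and log2(FPKM + 0.1) (limma 3.58.1), other scalings and filters, the replicate number as a block, and leaving out each library. The test was checked on simulated data.

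Members, lists and the rule for named genes were chosen with earlier results of these data known. The rule gives library values for members called, with an unadjusted p below 0.05 or without overlap, and for the 3 most abundant semaphorins and receptors. Of each list it takes called genes and the 2 most abundant others. Within-genotype pairs of libraries differed beyond sampling noise (chi-square per degree of freedom at least 47.9). P-values measure the spread between mice, of which the design text gives 4 per genotype.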

Additional observations from a re-analysis of the deposited data

Results flagged for a closer look

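Among 48 groups of 4 libraries checked (24 tested members in 2 genotypes), 2 held a library whose gap to the nearest of the others exceeded Dixon's 95% critical value. Chance flags about 1 in 20 groups. Sema3f stood at 116.3 CPM in cKO replicate 2, against 63.4 to 71.0 CPM in the other cKO libraries. Plxnc1 stood at 0.912 CPM in WT replicate 2, against 1.49 to 1.61 CPM in the other WT libraries.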

How the results depend on the processing

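The number of members called lower in cKO (2) was 3 with library-size scaling and 3 without the low-count filter (Sema4c added in both), 4 with DESeq2 (Sema4b, Sema4c, Sema4d and Sema6d), 1 with limma-voom, 1 on log2(FPKM + 1), 1 on log2(FPKM + 0.1) and 0 on unfiltered log2(FPKM + 1). Sema6d has a mean below 0.5 FPKM and was not in the filtered FPKM fits. The number called higher (0) was 1 with DESeq2. Shares of all genes called were 1.32% in the main fit, 5.47% with DESeq2, 3.55% without cKO replicate 2 and 0.082% on unfiltered FPKM. Leaving out single libraries gave 0 to 4 called lower: 0 without cKO replicate 1 or 3 or WT replicate 1, 3 or 4, 1 without cKO replicate 4 or WT replicate 2, and 4 without cKO replicate 2. Of all genes, 91 were lower and 94 higher, against 172 and 177 without the low-count filter, 575 and 691 with DESeq2, 8 and 11 on unfiltered FPKM, and 3 to 255 and 5 to 251 when single libraries were left out. Pathway genes called lower (1) were 3 with library-size scaling, 4 without the filter, 9 with DESeq2, 2 with limma-voom, 2 in each filtered FPKM fit, 0 on unfiltered FPKM and 0 to 5 with a library left out, and those called higher (3) were 7, 0 and 0 to 6 with DESeq2, on unfiltered FPKM and with a library left out.

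The labels do not say that replicate numbers pair mice. Deviations of same-numbered libraries correlated at -0.13, 0.17, 0.10 and 0.26, and 5 of 8 libraries correlated best with their own number. With the replicate number as a block, 1 member was lower (Sema4c, adjusted p = 0.0389, with Sema4d at 0.0534 and Sema6d at 0.0658), with 3 pathway genes lower and 0 higher.

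Signs turned for 7 members and 3 pathway genes, none of them called. Sema3c was at 0.0385 with library-size scaling, 0.0389 on log2(FPKM + 1) with or without the filter, and 0.0426 on log2(FPKM + 0.1). Cdc42 was at 0.0350, 0.0318 and 0.0327 and Rhoa at 0.0393, 0.0360 and 0.0361 in the same order. With single libraries left out the log2 fold changes ran from -0.11 to 0.0643 for Sema3c, -0.27 to 0.0476 for Sema3f, -0.0465 to 0.15 for Sema4g, -0.19 to 0.45 for Sema5a, -0.52 to 0.0798 for Sema7a, -0.0135 to 0.10 for Plxnb1, -0.0917 to 0.19 for Nrp2, -0.0743 to 0.0300 for Cdc42, -0.0434 to 0.0414 for Rhoa and -0.21 to 0.0260 for Cfl1. The causes were not tested. The 6 highest members by WT FPKM shared 5 with the order by CPM, 6 with FPKM divided by the TMM factor, and 5 with CPM per GENCODE exon length, an alternative chosen after seeing the data.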
